A study of Mus musculus with 35 samples.

Results

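Cpne5, Gm32468 and Gm15241 are 3 of the 55421 genes in a count table of interscapular brown adipose tissue (iBAT) from cold-exposed mice. They were chosen by their counts in these same 35 libraries, as genes of high variance that rose with prolonged cold, so their own time courses are given here as a description and carry no test. Cpne5 encodes a copine, and Gm32468 and Gm15241 are annotated as long noncoding RNA genes. Their genomic neighbours, the other copines and the long noncoding RNAs as a class were not used in the choice, and these were tested.

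The 35 mice were male C57BL/6J animals of 9 to 10 weeks, with 5 mice in each of 7 groups. Control mice stayed at room temperature (24 °C), and the others were kept at 6 °C for 6 hours or for 1, 2, 3, 4 or 5 days. Mice in the cold were kept 1 to a cage with no nest, so temperature and housing cannot be told apart, and all 6 comparisons use the same 5 controls. Whole tissue was sequenced from the 3′ ends of transcripts, so that fewer cells of a type and less RNA per cell cannot be told apart in these values.

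Copines are cytosolic proteins that bind membrane phospholipids through paired C2 domains when calcium rises, and carry a C-terminal von Willebrand factor A domain. Long noncoding RNAs are transcripts without a long open reading frame. Some of them act on genes in cis, near the place where they are made, which is why the genes around a noncoding locus are often measured beside it. Brown adipocytes burn lipid for heat, and prolonged cold is known to raise the genes of fatty acid and cholesterol synthesis alongside those of lipid oxidation in this tissue.

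On the GRCm38 build, Cpne5 (ENSMUSG00000024008) lies on the minus strand of chromosome 17 from 29155556 to 29238167, spans 82.6 kb and has 7 annotated transcripts. Gm32468 (ENSMUSG00000111013) is a long intergenic noncoding RNA gene on the plus strand of chromosome 10 from 93084206 to 93093727, with 2 transcripts of 1040 and 472 bases and 3 exons each. Gm15241 (ENSMUSG00000087505) is annotated as antisense, on the minus strand of chromosome X from 160488549 to 160499870, with 1 transcript of 474 bases in 5 exons. Its body overlaps that of Adgrg2, an adhesion G protein-coupled receptor gene on the opposite strand, and the exons of the 2 genes share 137 bases. The strand setting of the counting is not given in the sources used here, so a read in those shared bases could belong to either gene. Adgrg2 itself had 0 to 16 counts per mouse. Cpne5 shares 146 exonic bases with AC162182.2 on the opposite strand, which had at most 1 count in any mouse. The annotated end of Gm15241 carries a polyadenylation signal, AATAAA, whose first base lies 17 bases from the transcript's end. No such signal lies in the last 120 bases of either Gm32468 transcript, and where its sequenced 3′ end lies was not tested.

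The promoter windows of the 3 genes run from 250 bases before the start annotated by RefSeq to 50 bases after it. They are shown because the members rose at different times and the windows differ in base composition. The RefSeq starts are 29237790 for Cpne5, 93084236 for Gm32468 and 160499818 for Gm15241. They lie within the gene bodies given above, which begin at 29238167, 93084206 and 160499870. The whole Cpne5 window therefore lies inside that gene body, and no window at 29238167 was searched. The sequences come from RefSeq (GRCm38.p6), each 5′ to 3′ on the strand of its gene, and capitals mark the matches described after them.
Cpne5, chr17:29237741-29238040, minus strand: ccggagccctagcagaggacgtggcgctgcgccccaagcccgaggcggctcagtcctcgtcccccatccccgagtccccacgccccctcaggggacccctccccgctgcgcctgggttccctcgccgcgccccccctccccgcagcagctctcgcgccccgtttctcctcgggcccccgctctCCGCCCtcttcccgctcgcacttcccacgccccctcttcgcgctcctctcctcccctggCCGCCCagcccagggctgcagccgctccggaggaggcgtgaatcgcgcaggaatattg
Gm32468, chr10:93083986-93084285, plus strand: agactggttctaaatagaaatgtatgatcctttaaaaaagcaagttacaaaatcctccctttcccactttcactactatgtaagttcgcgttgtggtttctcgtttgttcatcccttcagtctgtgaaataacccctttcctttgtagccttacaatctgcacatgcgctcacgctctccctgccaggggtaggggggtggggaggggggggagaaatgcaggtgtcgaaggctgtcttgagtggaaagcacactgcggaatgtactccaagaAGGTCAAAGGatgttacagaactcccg
Gm15241, chrX:160499769-160500068, minus strand: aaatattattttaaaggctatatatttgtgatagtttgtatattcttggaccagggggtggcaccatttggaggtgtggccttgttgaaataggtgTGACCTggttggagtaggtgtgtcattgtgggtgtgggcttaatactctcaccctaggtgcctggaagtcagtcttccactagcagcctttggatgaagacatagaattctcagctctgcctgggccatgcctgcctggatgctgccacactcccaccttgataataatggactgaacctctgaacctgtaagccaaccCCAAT
The window of Cpne5 was 74.7% G and C and held 32 CpG dinucleotides, against a median of 52.7% and 7 CpG over the 32851 promoter windows of the mouse table. Those of Gm32468 and Gm15241 were 47.7% and 47.0% G and C and held 8 and 0 CpG. Cpne5 therefore has a GC-rich start, and both noncoding windows are below the median in G and C, with Gm32468 just above it in CpG. RefSeq gives Gm32468 a further start, whose window at chr10:93084987-93085286 had 0 CpG and none of the motifs searched.

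The 10 motifs searched were looked for on both strands, and were the cyclic AMP response element TGACGTCA, its core TGACG, the nuclear receptor repeat DR1 (AGGTCA given again after any 1 base), the first 10 bases of that repeat, the ERR element TCAAGGTCA, the single receptor site AGGTCA, the E-box CACGTG, the GC box GGGCGG, the TATA box TATAAA and the CCAAT box. The 10-base form of the repeat was added after the Gm32468 window had been read. Cpne5 held 2 GC boxes on the opposite strand, the nearer starting 8 bases before the start, and 35.658% of all windows hold this motif. Gm32468 held AGGTCAAAGG beginning 23 bases after its start, a match that also contains the single site AGGTCA. The 10-base form occurs in 0.658% of all windows and the single site in 16.255%. Gm15241 held AGGTCA on the opposite strand, 154 bases before its start, and a CCAAT box 45 bases after it, a motif of 37.408% of windows. The other motifs had no match in these 3 windows. These matches describe letters, and no binding was measured here.

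Each library held 3846016 to 6047247 counts, and levels are given as CPM, the read count scaled to a common library size, with 1 read worth 0.165 to 0.260 CPM before scaling. Mitochondrial genes took 33.6% to 46.2% of a library. The number of genes with a count was 17953 to 20246 in controls and 16080 to 17017 after 5 days. All 9 brown adipocyte markers on the list, among them Ucp1, Cidea and Adipoq, were detected in every group, and their summed level was 13704 to 17249 CPM in controls and 17297 to 22142 CPM after 5 days. At 5 days 3 of the 9 were higher and 3 lower, where 20.2% and 18.6% of all genes tested were. From controls to 5 days, Cox7a1 went from 539.7 ± 47.4 to 1029.3 ± 173.9 CPM and Plin1 from 616.2 ± 90.6 to 773.7 ± 31.7 CPM. Ucp1, the uncoupling protein of heat production, went from 1897 ± 605 to 7611 ± 1128 CPM, more than the sum rose, while Adipoq went from 890.9 ± 96.9 to 416.7 ± 65.3, Ebf2 from 80.5 ± 3.49 to 49.98 ± 7.44 and Prdm16 from 32.3 ± 6.92 to 20.8 ± 2.58 CPM (SD, n = 5). No pair of libraries of a group differed by as little as sampling noise, since the smallest chi-square per degree of freedom over 70 replicate pairs was 5.00. Values below are CPM after scaling by the trimmed mean of M-values (TMM), with mean ± SD over 5 mice, and fold changes are fitted log2 fold changes of cold over room temperature with their standard error (SE).

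Cpne5 was close to silent in controls and was highest after 1 day of cold. The 5 controls had 0.953, 0.953, 0.218, 0.652 and 0.359 CPM (0.627 ± 0.336, SD, n = 5), which were 1 to 5 reads each. After 6 hours the mice had 1.56, 0.232, 6.48, 3.07 and 1.82 CPM, from 1 to 29 reads. The range after 6 hours overlapped that of the controls, although 4 of 5 cold mice lay above every control. After 1 day the values were 73.9, 45.0, 32.7, 45.4 and 85.4 CPM (56.5 ± 22.1, SD, n = 5). Every mouse at 1 day was above every mouse at 6 hours, and the group mean was 90.0 times that of the controls. The level then stood lower at 2 and 3 days. It was 42.2, 22.0, 34.9, 15.6 and 41.4 CPM at 2 days (31.2 ± 11.9, SD, n = 5), and 29.3, 28.3, 35.4, 17.6 and 23.6 CPM at 3 days (26.8 ± 6.65, SD, n = 5). Means at 4 and 5 days were higher again. The mice had 34.4, 35.7, 45.1, 57.9 and 34.3 CPM at 4 days (41.5 ± 10.2, SD, n = 5), and 59.6, 40.8, 40.7, 30.8 and 53.1 CPM at 5 days (45.0 ± 11.4, SD, n = 5). From 1 to 5 days the order by mean was 1, 5, 4, 2 and 3 days, and each pair of neighbours in that order differed by less than the larger of their SDs and overlapped in range. The step between 3 days and 6 hours, 26.8 against 2.63 CPM, was beyond that spread and had no overlap.

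Gm32468 stayed near 0 in most mice through the first day and was seen in every mouse at 2 days. In controls the mice had 13, 1, 0, 3 and 0 counts, which were 2.48, 0.191, 0, 0.489 and 0 CPM (0.632 ± 1.05, SD, n = 5). Only 2 reads were counted over the 5 mice at 6 hours, both in replicate 3. At 1 day the counts were 1, 0, 15, 0 and 6, or 0.853 ± 1.18 CPM (SD, n = 5). So 3 of 15 libraries up to the first day held more than 5 reads, and the range at 1 day overlapped the controls. At 2 days every mouse had the transcript, at 6.96, 9.83, 3.76, 21.8 and 10.8 CPM (10.6 ± 6.82, SD, n = 5). Its level was 21.9, 20.9, 14.1, 17.4 and 26.2 CPM at 3 days (20.1 ± 4.61, SD, n = 5). The 5 mice at 2 days lay above all 15 mice of the earlier groups, and their values spread more widely, with a coefficient of variation of 64.1% against 22.9% at 3 days. After 4 days the mice had 28.2, 12.4, 26.8, 26.8 and 30.9 CPM (25.03 ± 7.28, SD, n = 5). After 5 days they had 14.9, 27.1, 36.0, 37.2 and 31.8 CPM (29.4 ± 9.01, SD, n = 5). The means of 3, 4 and 5 days rose in that order, but each step was smaller than the larger SD and the ranges overlapped. Only the step from 2 to 3 days, among the later ones, exceeded the larger SD, and there the ranges still overlapped.

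Gm15241 was measurable in every control and climbed from 1 day to 5 days. Controls had 4.00, 0.953, 3.27, 2.93 and 1.98 CPM (2.63 ± 1.19, SD, n = 5). The mice at 6 hours had 1.04, 1.39, 7.15, 1.89 and 1.46 CPM (2.59 ± 2.57, SD, n = 5), a mean equal to the controls within the spread. That mean rested on replicate 3, at 7.15 CPM, and the median was 1.46 CPM against 2.93 CPM in controls. With a mouse left out, the fitted log2 fold change at 6 hours ranged from -0.86 to 0.16. At 1 day the level was 13.9, 17.5, 25.7, 9.44 and 6.44 CPM (14.6 ± 7.51, SD, n = 5). All 5 mice at 1 day exceeded all controls, and 2 of them, at 9.44 and 6.44 CPM, lay near the highest mouse of the 6-hour group. The level was 19.1, 32.3, 32.1, 33.9 and 41.4 CPM at 2 days (31.7 ± 8.04, SD, n = 5), and 32.3, 37.8, 28.1, 42.7 and 27.2 CPM at 3 days (33.6 ± 6.59, SD, n = 5). The mean of 2 days exceeded that of 1 day by more than the larger SD, with overlapping ranges, and 2 and 3 days did not differ beyond their spread. Values were 48.2, 33.1, 42.4, 64.4 and 90.8 CPM at 4 days (55.8 ± 22.6, SD, n = 5), and 49.7, 58.5, 85.7, 115.9 and 74.8 CPM at 5 days (76.9 ± 25.9, SD, n = 5). The lowest mouse at 5 days was above the highest at 3 days, whereas 4 and 5 days overlapped and differed by less than the larger SD.

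**Figure D1:**
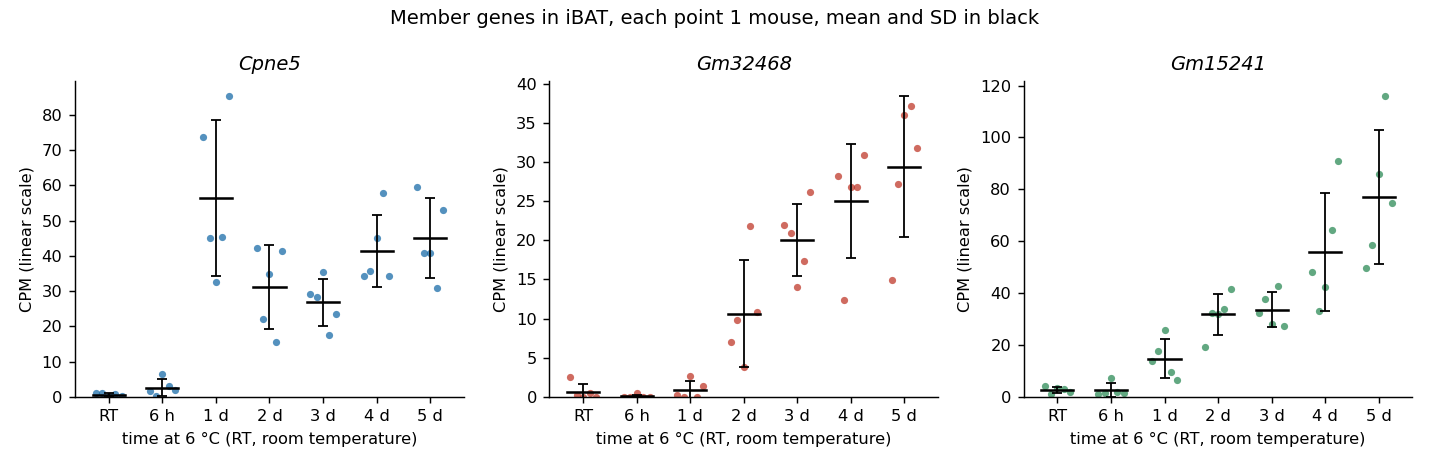
Level of Cpne5, Gm32468 and Gm15241 in CPM on a linear axis, each point 1 mouse, with the mean and SD of the 5 mice of a group in black and groups ordered from room temperature (RT) to 5 days at 6 °C. Cpne5 jumps to 56.5 CPM at 1 day, Gm32468 is first seen in every mouse at 2 days (10.6 CPM) and Gm15241 climbs to 76.9 CPM at 5 days.

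The 3 genes thus had different courses, and Cpne5, although grouped with genes of prolonged cold, had its highest mean at 1 day. That mean and the 5-day mean of Cpne5 differed by less than the larger SD, with overlapping ranges. Set against its own highest group mean, Cpne5 stood at 100% at 1 day, when Gm32468 stood at 2.90% and Gm15241 at 18.99%. At 3 days these shares were 47.5% for Cpne5, 68.3% for Gm32468 and 43.7% for Gm15241, and at 5 days 79.7%, 100% and 100%. The fitted log2 fold change of Cpne5 was 6.40 (SE 0.36) at 1 day and 6.07 (SE 0.27) at 5 days. Gm32468 had 3.97 (SE 0.67) at 2 days and 5.46 (SE 0.46) at 5 days. Gm15241 moved from -0.04 (SE 0.48) at 6 hours to 2.47 (SE 0.37) at 1 day and 4.84 (SE 0.28) at 5 days. Cpne5 at 6 hours and Gm32468 at 6 hours and 1 day fell below the filter on low counts and were not fitted. By this measure Cpne5 ranked 5, Gm32468 7 and Gm15241 9 among 10733 genes tested at 5 days, positions that follow from how they were chosen.

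**Figure D2:**
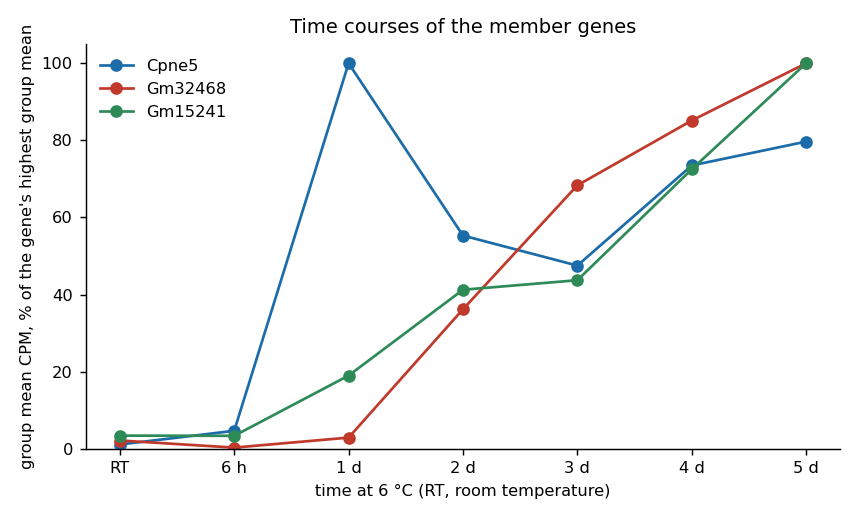
Group mean CPM of each gene as a percent of its own highest group mean (linear axis), by time at 6 °C, with room temperature at the left. The mean of Cpne5 is highest at 1 day and stands at 47.5% at 3 days, while Gm32468 and Gm15241 reach 100% at 5 days. The ranges of Cpne5 at 1 and 5 days overlap.

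The controls of Gm32468 rested on a single mouse. Replicate 1 at room temperature gave 13 of the 17 reads, and without it the fitted log2 fold change was 5.62 at 2 days, 6.56 at 3 days, 6.88 at 4 days and 7.11 at 5 days. The same mouse had the highest Gm15241 level of the controls (4.00 CPM) and the highest Ucp1 level (2771 CPM, with 1274 to 2115 CPM in the other controls). Replicate 3 at 6 hours was the highest of its group for all 3 members, at 6.48, 0.447 and 7.15 CPM. The part of these mice in the results for other genes was not tested beyond leaving each mouse out.

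Across the 35 mice, Pearson's r of log2 CPM was 0.64 between Cpne5 and Gm32468, 0.83 between Cpne5 and Gm15241, and 0.89 between Gm32468 and Gm15241. These are descriptions over libraries that share the time course. With the mean of each duration taken away, the same values were 0.06, 0.08 and 0.43. So within a group, the mice high in Cpne5 were not in general those high in the noncoding RNAs, while the noncoding RNAs shared some of their spread. Over the same residuals, the lipid-associated macrophage markers (Trem2, Gpnmb, Spp1 and Lgals3) had r = -0.43 with Gm15241, the proliferation markers had r = -0.36, and the brown adipocyte markers 0.34, over 35 mice. Gm15241 also had r = 0.42 with the B cell markers, 0.41 with the mitochondrial share of a library and -0.35 with the number of genes detected. Its r was 0.30 with the white adipocyte markers, -0.29 with the macrophage markers and 0.29 with the total counts of a library. Gm32468 had r = -0.34 with the proliferation markers, 0.33 with the white adipocyte markers and -0.30 with the macrophage markers. It also had 0.27 with the brown adipocyte markers, -0.27 with the lipid-associated macrophage markers and 0.26 with the skeletal muscle markers. Cpne5 had -0.31 with the B cell markers. The summed level of the 4 lipid-associated macrophage markers was 6.7 to 16.9 CPM in controls and 14.4 to 237.5 CPM after 5 days, and the 2 of them that could be tested were both higher at 5 days, where 20.2% of all genes were. The 5 proliferation markers summed to 5.7 to 8.3 CPM in controls and 11.2 to 47.9 CPM at 5 days, with 2 of the 2 tested higher. The 7 macrophage markers summed to 67.9 to 166.2 CPM in controls and 102.9 to 210.7 CPM at 5 days, with 3 of 7 higher. The 5 B cell markers summed to 3.62 to 11.9 CPM in controls and 11.2 to 19.8 CPM at 5 days, with the 1 tested higher and 1 of the 5 at 0 in all mice of both groups. The 5 white adipocyte markers summed to 40.4 to 83.2 CPM in controls and 24.2 to 93.1 CPM at 5 days. Of the 3 tested at 5 days 0 were higher and 1 was lower, where 18.6% of all genes were lower, and 1 of the 5 was at 0 in all controls. The 7 skeletal muscle markers summed to 62.3 to 862.6 CPM in controls and 131.4 to 237.2 CPM at 5 days, with 4 of 7 lower. No gene of the lipid-associated macrophage, proliferation and macrophage lists was at 0 in all mice of either group. The part of all these lists in the members' levels was not tested.

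The neighbours were the genes whose bodies lie within 250 kb of a member's body, 32 around Cpne5, 6 around Gm32468 and 10 around Gm15241. Of these 48 genes, 14 had enough counts to be tested at some duration, 11 had no count in any library and the other 23 had at most 30 counts in any mouse. By edgeR's quasi-likelihood test with Benjamini-Hochberg adjusted p below 0.05, 6 of 13 tested neighbours were called at 6 hours, against 42.5% of all genes tested. The count was 6 of 13 at 1 day (36.7% of all genes), 6 of 13 at 2 days (31.2%), 7 of 14 at 3 days (33.8%), 8 of 14 at 4 days (38.0%) and 7 of 13 at 5 days (38.8%). As shares these were 46.2%, 46.2%, 46.2%, 50%, 57.1% and 53.8%, above that of all genes at each duration. With only 13 or 14 genes tested, no result about the neighbours is drawn from the gap. The calls split into higher and lower neighbours as 3 and 3, 4 and 2, 4 and 2, 4 and 3, 4 and 4, and 3 and 4 from 6 hours to 5 days. Scaling by library size alone, which lowered the median of all genes by 0.13 to 0.23 on the log2 scale, gave 4 and 5 at 1 day, 3 and 4 at 3 days, 2 and 5 at 4 days, and 2 and 7 at 5 days. At 6 hours the split was 3 and 1 with DESeq2 and with no filter, and at 5 days 6 and 5 with no filter and 5 and 4 in the fit of all 7 groups.

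**Figure D3:**
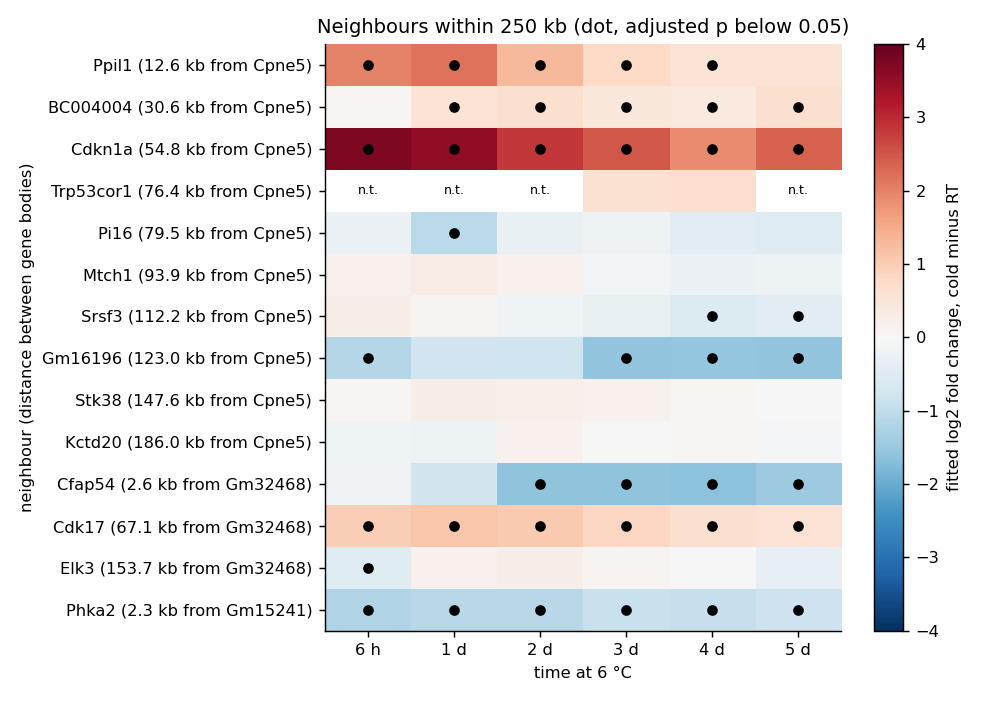
Fitted log2 fold change of cold over room temperature (RT) for the 14 tested neighbours, by time at 6 °C, in the order of the distance between gene bodies within each locus. A dot marks adjusted p below 0.05 and n.t. a gene below the filter, and Cdkn1a is the deepest red at every duration while Phka2 is blue throughout.

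Around Cpne5, the neighbours Cdkn1a and Ppil1 were higher at 6 hours, when Cpne5 was below the filter and was not fitted. Cdkn1a, which encodes the cell cycle inhibitor p21, starts on the opposite strand and its body lies 54.8 kb from that of Cpne5. It had 32.6, 56.0, 42.6, 31.1 and 26.4 CPM in controls and 557.7, 577.4, 373.7, 496.1 and 533.3 CPM at 6 hours. No cold mouse overlapped the controls at any duration. Its log2 fold change was 3.72 (SE 0.18, adjusted p = 9.79e-11) at 6 hours, 3.55 (SE 0.17) at 1 day, 1.90 (SE 0.19) at 4 days and 2.37 (SE 0.20, adjusted p = 7.98e-08) at 5 days. At 6 hours, when Cdkn1a was at its highest mean of 507.6 CPM, Cpne5 averaged 2.63 CPM, against 0.627 CPM in controls. For Cpne5, 4 of 5 mice at 6 hours lay above every control. From 6 hours to 5 days Cdkn1a fell by 1.37 on the log2 scale (adjusted p = 5.01e-07 in the fit of all 7 groups). In that fit 34.1% of genes were called. Over the same time the mean of Cpne5 went from 2.63 to 45.0 CPM. Whether the levels of these 2 genes depend on each other was not tested.

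Ppil1, a peptidyl-prolyl isomerase gene of the spliceosome, lies 12.6 kb upstream of Cpne5 on the same strand and is the nearest tested gene. Controls had 11.8, 6.67, 9.61, 6.52 and 5.57 CPM, and the mice at 1 day had 42.1, 28.8, 27.2, 38.0 and 46.0 CPM. Every mouse at 6 hours, 1 day and 2 days was above every control, and from 3 days on the ranges overlapped. The log2 fold change was 2.00 (SE 0.18, adjusted p = 1.11e-07) at 6 hours, 2.17 (SE 0.20) at 1 day, 1.30 (SE 0.19) at 2 days and 0.79 (SE 0.23, adjusted p = 0.0138) at 3 days. At 4 days it was 0.55 with adjusted p = 0.0487, a call lost when any of 6 of the 10 mice was left out (room temperature replicates 2, 4 and 5 and 4-day replicates 3, 4 and 5, with values of 0.42 to 0.58), and with library size scaling (0.42) or DESeq2 (0.57, adjusted p = 0.0582). At 5 days Ppil1 did not pass, at 12.0 ± 3.27 CPM against 8.04 ± 2.599 CPM in controls (SD, n = 5). Ppil1 fell by 1.45 on the log2 scale from 6 hours to 5 days (adjusted p = 2.62e-07).

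**Figure D4:**
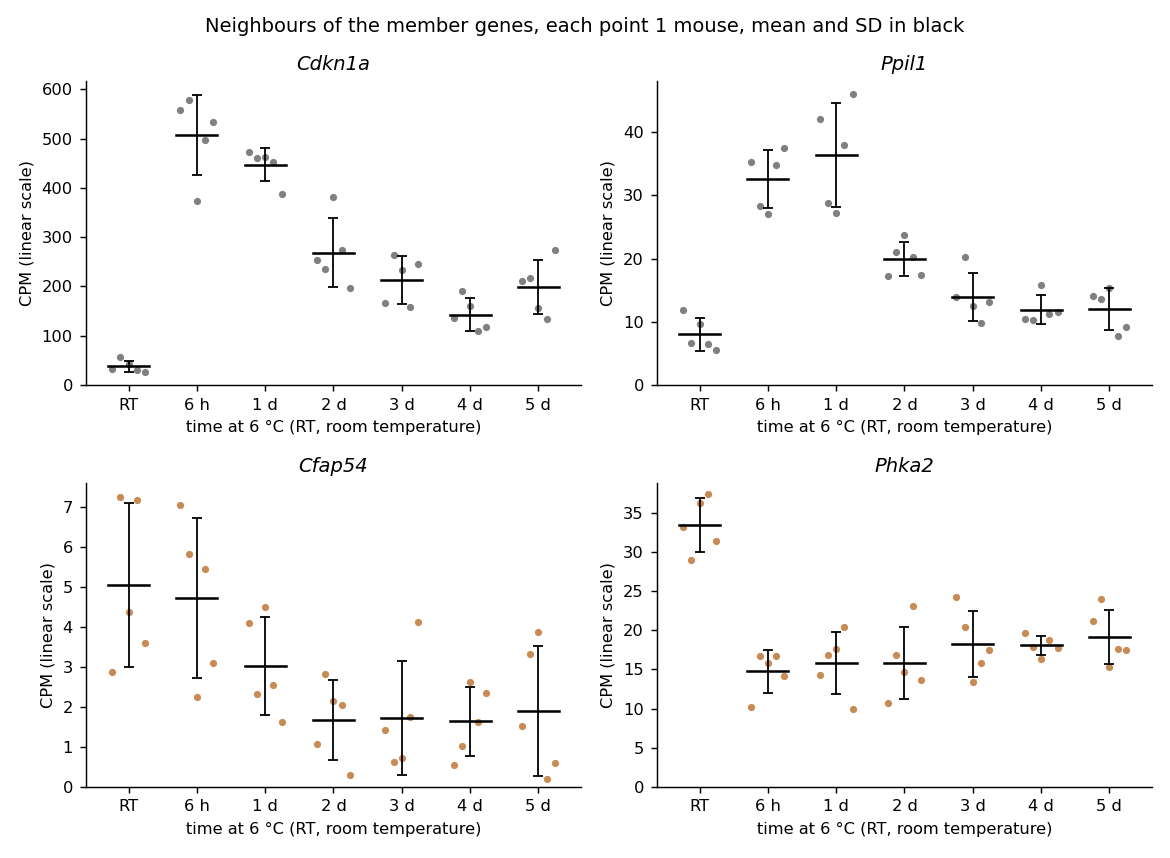
CPM on linear axes for 4 neighbours, each point 1 mouse, with mean and SD in black, by time at 6 °C. Cdkn1a and Ppil1, near Cpne5, are highest at 6 hours or 1 day, the mean of Cfap54 (near Gm32468) is lower from 2 days on with some overlap, and every cold mouse lies below the controls for Phka2 (near Gm15241).

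Of the remaining neighbours of Cpne5, BC004004, 30.6 kb away, rose modestly. It was at 59.1 ± 6.06 CPM in controls and 94.0 ± 13.5 CPM at 5 days (SD, n = 5), with a log2 fold change of 0.53 (adjusted p = 5.22e-04) at 1 day and 0.64 (SE 0.12, adjusted p = 2.82e-04) at 5 days. Its call at 4 days (0.39, adjusted p = 0.0307) was lost without any of 5 mice (room temperature replicates 3, 4 and 5 and 4-day replicates 4 and 5, 0.30 to 0.39) and with library size scaling (0.23). Gm16196, a noncoding gene that shares a bidirectional promoter with Srsf3, was lower at 3 and 5 days, by -1.57 (SE 0.42, adjusted p = 0.00870) and -1.58 (SE 0.39, adjusted p = 0.00381), from 10 to 20 reads per control. Its calls at 6 hours (-1.13, adjusted p = 0.0278) and 4 days (-1.55, adjusted p = 0.0261) were each lost without any of 4 mice, which were room temperature replicates 1 and 4 with 6-hour replicates 2 and 5 (-1.04 to -0.86) or with 4-day replicates 1 and 5 (-1.49 to -1.28). The call at 6 hours was also lost with DESeq2 (-1.11), no filter (-1.11) and all 7 groups in a single fit (-1.10). Srsf3, a splicing factor gene, was at 41.1 ± 4.53 CPM in controls and 30.6 ± 4.29 CPM at 5 days, and its log2 fold change was -0.54 (adjusted p = 8.97e-04) at 4 days and -0.45 (SE 0.12, adjusted p = 0.00744) at 5 days. Pi16, a peptidase inhibitor gene of fibroblasts, was lower at 1 day (-1.09, SE 0.29, adjusted p = 0.00800) and at no other duration. Mtch1, Kctd20 and Stk38 did not pass at any duration, with means of 190.8, 21.7 and 58.6 CPM in controls. Trp53cor1, the noncoding RNA known as lincRNA-p21 that lies beside Cdkn1a, was testable at 3 and 4 days and did not pass, at 1.70 ± 0.29 CPM in controls, 2.599 ± 0.61 at 3 days and 2.72 ± 1.35 at 4 days. It was lowest at 6 hours, 0.633 ± 0.386 CPM, and rose by 1.82 from there to 5 days (log2 scale, adjusted p = 0.00305 in the fit of all 7 groups). The closest protein-coding gene, Rab44 at 6.6 kb, had at most 4 reads in a mouse. The genes called higher around Cpne5 were thus Cdkn1a, Ppil1 and BC004004, and those between and beside them were lower, did not pass or were too low to test.

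The Gm32468 locus held 3 tested neighbours. Cfap54, a gene of ciliary axonemes, starts on the opposite strand 2588 bases from the start of Gm32468, so the 2 genes face away from each other. It had 2.86, 7.24, 4.37, 7.17 and 3.59 CPM in controls and 1.06, 2.81, 2.15, 2.05 and 0.285 CPM at 2 days. All mice at 2 and 4 days lay below all controls, and at 3 and 5 days the ranges overlapped. Its log2 fold change was -1.60 (SE 0.41, adjusted p = 0.00757) at 2 days, -1.62 (SE 0.44, adjusted p = 0.00914) at 3 days and -1.65 (SE 0.38, adjusted p = 0.00286) at 4 days. At 5 days it was -1.46 (SE 0.48, adjusted p = 0.0219), lost without room temperature replicate 2 (-1.29), room temperature replicate 4 (-1.29) or 5-day replicate 5 (-1.22). Cfap54 did not pass at 6 hours or 1 day (-0.16 and -0.74), and whether its level depends on Gm32468 was not tested. From 6 hours to 5 days it fell by 1.32 (log2 scale, adjusted p = 0.0396). Counts of Cfap54 were small, from 1 to 44 per mouse.

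Cdk17, a cyclin-dependent kinase gene 67.1 kb from Gm32468 on the same strand, was higher at all 6 durations. It was at 23.4 ± 4.09 CPM in controls, 51.0 ± 6.69 at 1 day and 35.3 ± 5.39 at 5 days (SD, n = 5), with log2 fold changes of 0.99 (SE 0.13, adjusted p = 6.32e-06) at 6 hours, 1.10 (SE 0.13) at 1 day and 0.57 (SE 0.14, adjusted p = 0.00432) at 5 days. With library size scaling the value at 5 days was 0.33 and did not pass (adjusted p = 0.0605). At 6 hours, when Cdk17 was up, 4 of 5 mice had no read of Gm32468. At 5 days, when Gm32468 was at its highest mean, Cdk17 stood lower than at 6 hours (-0.44, adjusted p = 0.0186 in the fit of all 7 groups). Whether the level of Cdk17 depends on Gm32468 was not tested. Elk3, an ETS factor gene whose body overlaps Cdk17 on the other strand, was lower at 6 hours (-0.49, SE 0.16, adjusted p = 0.0235), a call lost without room temperature replicate 2 (-0.42), 6-hour replicate 3 (-0.40) or 6-hour replicate 4 (-0.44), with DESeq2 (-0.46), with no filter (-0.48) and in the fit of all 7 groups (-0.47). Elk3 did not pass later, and reads of the shared stretch cannot be told apart without strand. Gm32688, an untested noncoding gene 223.7 kb away, had 0.56 CPM on average in controls and 2.94 CPM at 5 days, from 1 to 30 reads per mouse.

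Gm15241 had a single tested neighbour, Phka2, which encodes the liver form of the regulatory alpha subunit of phosphorylase kinase, an enzyme of glycogen breakdown. Phka2 starts on the opposite strand, 2296 bases from the start of Gm15241. Controls had 33.2, 29.0, 36.2, 37.5 and 31.4 CPM, and the mice at 6 hours had 10.2, 16.7, 15.9, 16.8 and 14.2 CPM. At 5 days they had 21.2, 24.1, 15.3, 17.6 and 17.5 CPM. All 30 cold-exposed mice were below all 5 controls. Its log2 fold change was -1.21 (SE 0.13, adjusted p = 1.46e-06) at 6 hours, -1.10 (SE 0.16) at 1 day, -0.91 (SE 0.11) at 4 days and -0.83 (SE 0.13, adjusted p = 8.37e-05) at 5 days. At 6 hours, when Phka2 was lower, Gm15241 had a mean of 2.59 CPM and a median of 1.46 CPM. Phka2 at 5 days did not differ from 6 hours by the test (0.36, adjusted p = 0.117 in the fit of all 7 groups). Over the same time the mean of Gm15241 went from 2.59 to 76.9 CPM. Whether the level of Phka2 depends on Gm15241 was not tested. Adgrg2, which overlaps Gm15241, stayed below the filter, with a mean of 1.93 CPM in controls and 1.37 CPM at 5 days, with no more than 14 reads in any mouse at 5 days.

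The other copines did not share the course of Cpne5. Cpne1 had no read in any mouse, and Cpne4, Cpne6, Cpne7 and Cpne9 had at most 1, 2, 6 and 12 reads. Only Cpne2, Cpne3 and Cpne8 could be tested. Cpne3, which had the most reads among the other copines, was at 43.3 ± 6.48 CPM in controls and 41.1 ± 1.94 CPM at 5 days (SD, n = 5). Cpne2 went from 3.49 ± 0.88 to 3.36 ± 1.63 CPM, and Cpne8 from 4.60 ± 0.38 to 3.56 ± 0.89 CPM. Across the 6 comparisons the single call was Cpne8 at 6 hours (-0.65, SE 0.25, adjusted p = 0.0413), which was lost in DESeq2 (-0.62, adjusted p = 0.111), with no filter (-0.64), with the replicate block (-0.67), in the fit of all 7 groups and in 9 of 10 fits that left out a mouse, all but the fit without 6-hour replicate 2, over a range of -0.73 to -0.52. From 1 to 5 days edgeR called 0 of 3 and found 0 at an unadjusted p below 0.05. DESeq2, which also tested copines with fewer reads, called Cpne9 lower at 3 and 4 days (-2.89 and -3.11), on at most 12 reads per control. No copine other than Cpne5 was called higher by any tool or scaling run.

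Of 38 genes for other proteins that bind membranes through C2 domains (extended synaptotagmins, synaptotagmins and their relatives, ferlins and protein kinases C), 12 had enough reads. At 5 days 2 were higher, 5 lower and 5 did not pass, with a median log2 fold change of -0.41 beside -0.02 over all genes tested, of which 20.2% were higher and 18.6% lower. From 6 hours to 4 days the higher and lower counts were 2 and 6, 2 and 3, 4 and 3, 4 and 3, and 3 and 4. In either direction these were 66.7%, 41.7%, 58.3%, 58.3% and 58.3% of the list, against 42.5%, 36.7%, 31.2%, 33.8% and 38.0% of all genes. Scaling by library size alone gave 1 and 5 at 1 day and 3 and 4 at 2 days. Sytl1, a Rab27 effector of vesicle traffic, fell from 3.93 ± 1.44 to 0.751 ± 0.491 CPM at 5 days (log2 fold change -2.38, SE 0.43, adjusted p = 2.87e-04) and was lower at all 6 durations. Esyt1, a tether between the endoplasmic reticulum and the plasma membrane, fell from 48.5 ± 6.94 to 20.99 ± 3.31 CPM (-1.24, SE 0.13, adjusted p = 1.43e-06). Rasa4, a calcium-responsive Ras GTPase-activating protein gene, was lower at 5 days (-1.16, SE 0.34, adjusted p = 0.0107) and at 6 hours, and did not pass between. Others of the list were higher, and these are named after their values were seen. Dysf, the gene of the membrane repair protein dysferlin, was higher at all 6 durations, from 9.09 ± 3.40 CPM in controls to 28.5 ± 2.89 at 1 day and 18.6 ± 3.94 at 5 days (log2 fold change 1.63, SE 0.21, at 1 day and 1.01, SE 0.23, adjusted p = 0.00231, at 5 days). Syt11 was lower at 6 hours (-1.10) and higher from 2 to 5 days (0.73, SE 0.15, at 5 days). Syt12 was higher from 6 hours to 4 days (0.87 at 1 day to 1.44 at 3 days) and did not pass at 5 days (0.66). Myof was higher at 2 and 3 days (1.06 and 1.39) and at no other duration. Syt9, too low to test, had a mean of 0.25 CPM in controls, 0 at 6 hours, 1.64 at 2 days and 1.51 at 5 days.

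Most of the other long noncoding RNAs that were called were lower in the cold, whereas Gm32468 and Gm15241 had been chosen for their rise. Of 13131 such genes in the table, apart from both members, 577 were tested at 6 hours and 558 at 5 days. At 6 hours 61 were higher and 153 lower, or 10.6% and 26.5% of those tested, against 21.5% and 21.0% of all genes. The counts were 48 and 148 of 578 tested at 1 day, or 8.3% and 25.6%, against 18.9% and 17.8% of all genes. At 2 days they were 33 and 147 of 538, or 6.1% and 27.3%, against 16.4% and 14.7%. At 3 days they were 29 and 160 of 570, or 5.1% and 28.1%, against 18.3% and 15.5%. At 4 days they were 34 and 211 of 622, or 5.5% and 33.9%, against 19.4% and 18.6%. At 5 days 47 were higher and 203 lower, or 8.4% and 36.4% of those tested, against 20.2% and 18.6% of all genes. Over all genes these were 2167 higher and 1998 lower, or 1194 and 3347 with library size scaling. The median log2 fold change of the class was -0.23 at 6 hours, -0.30 at 1 day, -0.39 at 2 days, -0.42 at 3 days, -0.51 at 4 days and -0.51 at 5 days, where the median of all genes was -0.03 to -0.01. Scaling by library size alone moved the split to 41 higher and 195 lower at 6 hours, 35 and 209 at 1 day and 30 and 264 at 5 days. The number of genes detected per library was also lower at 5 days, as given above, and its part in the class's lower level was not tested. In this class and with both members included, Gm32468 ranked 1 by log2 fold change from 2 to 5 days. Gm15241 ranked 3 at 2 and 3 days and 2 at 4 and 5 days. These positions are a description and follow from how both were chosen. At 6 hours Gm15241 ranked 217 of 578.

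**Figure D5:**
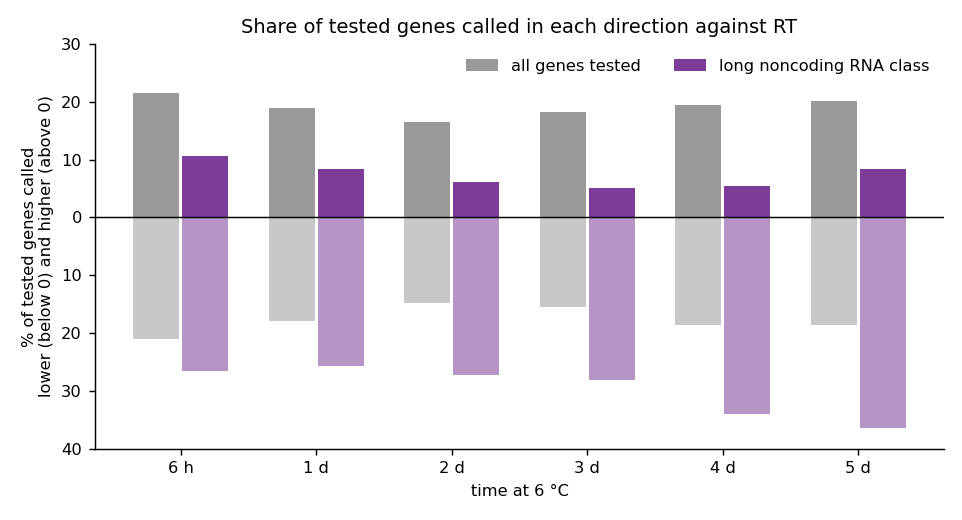
Percent of tested genes called higher (above 0) and lower (below 0, pale) against room temperature (RT) at each duration, by edgeR with adjusted p below 0.05, for all genes tested (grey) and for the long noncoding RNA class without Gm32468 and Gm15241 (purple). The class has fewer higher and more lower calls at each duration, with 47 higher and 203 lower at 5 days.

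Among the long noncoding RNAs that rose most at 5 days was 2310069B03Rik, on chromosome 6, with 1.16 ± 0.947 CPM in controls and 25.2 ± 10.5 CPM at 5 days (log2 fold change 4.40, SE 0.41, adjusted p = 2.09e-07). It was already at 18.6 CPM at 1 day. Gm17116 (4.54, SE 0.48) was at 6.11 CPM at 1 day and 4.10 CPM at 5 days, from 0.150 CPM in controls. Gm16062 (3.71, SE 0.55) was highest at 1 day, at 13.4 CPM, and had 10.2 CPM at 6 hours. Gm29686 (2.80, SE 0.41) was at 0.495 CPM at 6 hours, 1.97 at 1 day and 4.12 at 5 days. The 4 RNAs differed in when they appeared, with Gm16062 above all controls in every mouse at 6 hours and the other 3 at 1 day. In the other direction Gm49492 fell from 7.02 ± 2.20 to 0.321 ± 0.489 CPM (-4.32, SE 0.53), Gm10687 had -3.93 (SE 0.56), BC037032 had -3.22 (SE 0.50) and 4930458D05Rik had -3.13 (SE 0.44). Each of these 4 was at or below 1.76 CPM on average from 6 hours on.

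A list of 35 well-studied long noncoding RNAs had 33 in the table and 26 tested. Their higher and lower counts from 6 hours to 5 days were 6 and 6, 3 and 8, 1 and 9, 1 and 7, 1 and 9, and 2 and 11, with a median log2 fold change at 5 days of -0.48. In either direction these were 12 of 26, 11 of 25, 10 of 25, 8 of 26, 10 of 26 and 13 of 26 tested, against 42.5%, 36.7%, 31.2%, 33.8%, 38.0% and 38.8% of all genes. With library size scaling they were 5 and 10 at 6 hours and 1 and 12 at 1 day. Snhg14, the host of small nucleolar RNAs at the imprinted Snrpn locus, fell from 5.52 ± 0.712 to 1.98 ± 0.888 CPM at 5 days (-1.48, SE 0.29, adjusted p = 6.48e-04). Airn, the antisense RNA of the imprinted Igf2r locus, fell from 8.92 ± 1.63 to 3.43 ± 1.91 CPM (-1.40, SE 0.30, adjusted p = 0.00116). Mir17hg, the host of the miR-17-92 cluster, had -1.46 (SE 0.54, adjusted p = 0.0384), which was lost without any of 7 mice (room temperature replicates 1, 2 and 4 and 5-day replicates 1, 3, 4 and 5, with values of -1.51 to -1.13), with DESeq2 (-1.46, adjusted p = 0.0566) and in the fit of all 7 groups (-1.45, adjusted p = 0.0619). Ctcflos, named after its values were seen, was higher at all 6 durations, from 44.1 ± 13.1 CPM in controls to 219.4 ± 26.9 at 1 day and 82.4 ± 20.6 at 5 days (log2 fold change 2.30 at 1 day and 0.88, SE 0.19, adjusted p = 0.00157, at 5 days). From 2 to 4 days it was the single RNA of the list called higher.

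The genes whose pattern over the 35 mice was most like each member were found by Pearson's r of log2 CPM among 12076 genes, given here as a description, since all genes share the libraries and the time course. For Cpne5 these were Pmf1 (r = 0.93), a kinetochore and polyamine-responsive factor gene, Arhgef19 (0.92), Alpl (0.92), the tissue-nonspecific alkaline phosphatase, Lamp1 (0.91), a lysosomal membrane protein gene, and Kcmf1 (0.91), a ubiquitin ligase gene. Arhgef19 went from 0.581 ± 0.355 CPM in controls to 8.39 ± 1.21 at 1 day and 9.77 ± 1.66 at 5 days, and Alpl from 3.93 ± 1.01 to 19.9 ± 4.73 and 34.3 ± 6.48. Both, like Cpne5, were raised at 1 day and stayed raised.

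For Gm32468 they were Retsat (r = 0.94), the retinol saturase, Scd2 (0.93), a stearoyl-CoA desaturase, Cpt2 (0.92), the inner-membrane carnitine palmitoyltransferase, Insig1 (0.92), the sterol-responsive anchor of SREBP processing, and the antisense RNA Gm17634 (0.91). Insig1 was at 37.9 ± 8.44 CPM in controls, 27.1 ± 10.5 at 6 hours, 47.1 ± 14.1 at 1 day and 123.5 ± 26.7 at 2 days. Retsat was at 172.4 ± 17.7 CPM in controls, 147.4 ± 11.5 at 1 day and 266.7 ± 45.3 at 2 days. Like Gm32468, both took their main step between 1 and 2 days.

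For Gm15241 the list was Ccdc122 (r = 0.95), a coiled-coil protein gene, Nsdhl (0.95), a sterol dehydrogenase of cholesterol synthesis, Sorl1 (0.95), a sorting receptor gene, Scd2 (0.94) and Lsm4 (0.94), a U6 RNA-binding protein gene. Nsdhl went from 11.4 ± 4.36 CPM in controls through 18.7 ± 7.52 at 1 day to 51.5 ± 10.2 at 5 days, and Sorl1 from 10.3 ± 4.91 through 53.4 ± 25.5 to 100.5 ± 22.9. With the mean of each duration taken away, Nsdhl kept r = 0.76 and Ccdc122 0.65 with Gm15241, against 0.50 for Pmf1 with Cpne5 and 0.41 for Retsat with Gm32468.

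The genes that the study labels for its chronic pattern had a median r of 0.68 with Cpne5 (9 genes, 0.27 to 0.85), 0.69 with Gm32468 (0.45 to 0.92) and 0.73 with Gm15241 (0.54 to 0.93). Elovl3, the elongase of very long-chain fatty acids, had the highest r of them with Cpne5, 0.85, and Cpt2 the highest with both noncoding RNAs. The 6 genes of the acute pattern had a median r of 0.35, 0.01 and 0.12. Ucp1 had 0.64 with Cpne5, 0.30 with Gm32468 and 0.49 with Gm15241, and Nr4a1, an immediate early nuclear receptor gene, had -0.30, -0.56 and -0.52. Although labelled acute, Ucp1 stayed raised in these counts. Its mean was 1897 CPM in controls, 7216 at 6 hours, 7842 at 1 day and 7611 at 5 days. The study chose those genes on the same libraries, so they are no independent measure of either pattern.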

How the data were processed

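Total RNA of interscapular brown adipose tissue from 35 mice was made into 3′ end libraries by the authors. The authors aligned the reads with STAR (2.6.1d) and counted them per gene with HTSeq (0.11.2) on GRCm38, and deposited raw counts for 55421 genes. The strand setting of the counting is not given in the sources used here. A 3′ read count follows transcript number rather than length, so levels of different genes were not compared per length.

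From the deposited counts, CPM were computed after TMM scaling. Each cold duration was compared with room temperature in a separate fit with edgeR's quasi-likelihood test (edgeR 4.0.16, limma 3.58.1, R 4.3.3), after filterByExpr and with Benjamini-Hochberg adjustment over all genes tested, and calls were made at an adjusted p below 0.05. P-values measure the spread between separate mice. A fit of all 7 groups gave the difference between 5 days and 6 hours, and was chosen for this use after seeing the data. Tests were checked on simulated data. Alternatives were DESeq2 (1.42.0), its size factors in edgeR, library size alone, no filter, a replicate block, all groups in a single fit, other prior counts and windows, and leaving out each mouse. Each library held 3846016 to 6047247 counts.

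Gene positions came from GENCODE (Ensembl 96, GRCm38), where 55240 of 55421 identifiers matched, and promoters from RefSeq (GRCm38.p6). Pearson's r used log2 CPM with a prior count of 2. Python 3.11.15, pandas 2.3.3, numpy 2.4.6, scipy 1.17.1 and matplotlib 3.10.9 were used.

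The members and lists were chosen with earlier results of these data known. Named are the 3 members, every neighbour within 250 kb that was tested at any duration and all copines. From the C2-domain and well-studied noncoding RNA lists, the 3 called genes with the largest absolute log2 fold change at 5 days are named. From the noncoding class these are the 4 in each direction with the largest change, on condition that the mean count reached 10 and the mice of the 2 groups did not overlap, and for each member the 5 genes with the highest r. Rab44, Adgrg2, AC162182.2, Gm32688, Dysf, Syt11, Syt12, Myof, Syt9 and Ctcflos were added after their values were seen. Syt12 and Myof are not among the single genes followed through the other settings. Norad and Oip5os1 could not be matched.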

Additional observations from a re-analysis of the deposited data

Results flagged for a closer look

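A mouse that stood apart from the other 4 of its group, by Dixon's test at the 95% level, was found in 12 of 140 groups of mice over 20 genes, where chance flags about 1 in 20. Gm32468 had 3 such values, 2.48 CPM in room temperature replicate 1, 0.447 CPM in 6-hour replicate 3 and 12.4 CPM in 4-day replicate 2, the last below its group. Gm15241 had 7.15 CPM in 6-hour replicate 3, the same mouse. Among the neighbours, Cdk17 stood apart at 69.9 CPM in 2-day replicate 1, Cdkn1a at 388.0 CPM in 1-day replicate 5, Mtch1 at 298.0 CPM in 1-day replicate 4 and Pi16 at 6.37 CPM in 3-day replicate 1. Ppil1 did so at 15.9 CPM in 4-day replicate 3, Srsf3 at 49.0 CPM in room temperature replicate 2 and Trp53cor1 at 1.54 CPM in 3-day replicate 5. Among the copines, Cpne2 had 5.02 CPM in room temperature replicate 3.

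The response of 8 of 17 neighbours and copines tested differed between 5 days and 6 hours in the fit of all 7 groups (edgeR, adjusted p below 0.05), against 34.1% of all genes. As the difference of the log2 fold changes (5 days minus 6 hours), Cdkn1a had -1.37, Ppil1 -1.45, Cfap54 -1.32, Srsf3 -0.71, Cdk17 -0.44 and Mtch1 -0.37. BC004004 had 0.55 and Trp53cor1 1.82. Phka2, beside Gm15241, had 0.36 and did not pass (adjusted p = 0.117).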

How the results depend on the processing

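No called value of a single gene changed sign under the alternatives run, nor did a fitted member value, apart from Gm15241 at 6 hours. That value was -0.04 and ran from -0.86 to 0.16 with a mouse left out. The balance of higher and lower calls did turn, among others with library size scaling (all genes at 5 days 1194 higher and 3347 lower, neighbours at 1 day 4 and 5, C2-domain genes at 2 days 3 and 4) and with DESeq2 (all genes at 4 days 2273 and 2415). Of 348 values of single genes under other settings, 17 lost their call, and of 577 values with a mouse left out, 41 did. The shared controls, the reads per gene (0 to 13 per control for Gm32468) and the untested low genes limit what can be seen.

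Neighbour calls numbered 11, 11, 13 and 14 at 6 hours and 3, 4 and 5 days within 500 kb, and 11 at 5 days with no filter, and leaving out a mouse gave 5 to 8 at 4 days (5 without room temperature replicate 4 or 4-day replicate 5). Copine calls at 6 hours were 0 with DESeq2, no filter or all 7 groups and 2 with library size only. They were 1 at 1 and 5 days with library size only, 1 at 3 and 4 days with DESeq2 and 1 at 3, 4 and 5 days with no filter, and ranged from 0 to 1 at 6 hours and at 2 days with a mouse left out (1 at 2 days without 2-day replicate 1). C2-domain calls at 1 day were 10 with no filter and 8 with all 7 groups, and with no filter 11, 11 and 11 at 3, 4 and 5 days. The noncoding class had, from 6 hours to 5 days, 336, 296, 273, 352, 537 and 561 calls with DESeq2 and 388, 329, 317, 420, 633 and 645 with no filter, in both of which more genes were tested. The wider window and the fits with no filter likewise took in more neighbours and C2-domain genes. Over all genes, the calls at 5 days with no filter were 2469 higher and 2668 lower. No result about any list is drawn from these larger counts. The difference of mean log2 CPM at 5 days was 6.06 for Cpne5 with a prior count of 0.5 and 4.79 with 5, and 6.36 for Gm32468 with 0.5. With a mouse left out, the fitted value of Gm32468 ranged from 3.54 to 5.62 at 2 days, 4.59 to 6.56 at 3 days, 4.90 to 6.88 at 4 days and 5.14 to 7.11 at 5 days, the upper end each time without room temperature replicate 1. Of the 5 genes most like Cpne5, 3 were shared with library size only, 1 by Spearman's rho and 1 over the 30 cold-exposed mice. Those shared for Gm32468 were 3 by Spearman's rho, and for Gm15241 2 by Spearman's rho and 2 over the cold-exposed mice. With duration means removed, 0 were shared for each. For the other moved values the cause was not tested.

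Pairing by replicate number was looked for only between each cold mouse and the control of the same number. With duration means removed, their correlation ran from -0.19 to 0.14 and passed 0.1 in 2 of 30 pairs. Mice of different numbers and of different cold groups were not compared, so this check cannot decide whether the numbers pair the mice. With the replicate block, copine calls at 6 hours were 0, neighbour calls were 6, 6, 6, 7, 8 and 8 from 6 hours to 5 days, and calls over all genes were 4490, 3609, 2857, 3288, 3747 and 4027.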
